A study of Homo sapiens with 62 samples.

Results

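10 neighbouring genes of chromosome band 17q12 were followed across the 62 RNA-seq libraries of the series: ZNHIT3, MYO19, PIGW, GGNBP2, DHRS11, MRM1, LHX1, AATF, ACACA and TADA2A, in chromosomal order. They are 10 of the 58735 genes in the tables of A2058, HCT116, AGS and MCF10A, and all 10 were among the 16318 genes with enough counts to test over the A2058 libraries. The members were chosen by gene name around PIGW and MRM1, and those 2 were selected on measured values, namely their low counts in A2058 clones that lost the chromosome 7 short-arm gain (7p-loss). The values of the 7p-loss comparison are therefore given below as a description, and counts past a threshold there support nothing, while the libraries of clones that lost 1q or 8q and of the other cell lines did not enter the choice. The A2058 WT libraries did, and they also serve as controls for 1q-loss and 8q-loss. The question was whether the neighbours fell together, clone by clone.

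The study removed single extra chromosome arms from aneuploid human cell lines by CRISPR-based methods called ReDACT, in 3 forms (NS, TR and CO), and grew single-cell clones of the product. A2058, a melanoma line with gains of 1q, 7p and 8q, gave 4 parental (WT) libraries, 6 libraries of 3 clones of 7p-loss, 4 libraries of 2 clones of 1q-loss and 4 libraries of 2 clones of 8q-loss, all made by ReDACT-CO. HCT116, a colorectal cancer line with an 8q gain, gave 2 WT libraries and 4 of 2 ReDACT-CO clones of 8q-loss. AGS, a gastric cancer line with a 1q gain, gave 1 WT library, 2 libraries of TK+ clones, which carry the integrated thymidine kinase (TK) cassette and keep the gain, and 5 libraries of 5 1q-loss clones (c1, c4, c6 and c7 by ReDACT-NS, c11 by ReDACT-CO). A2780, an ovarian cancer line with a 1q gain, gave 2 WT, 2 TK+ and 6 1q-loss libraries of 3 ReDACT-NS clones. MCF10A, a non-tumour breast epithelial line with an extra 1q, gave 2 WT libraries and 8 of 4 1q-loss clones (c1 to c3 by ReDACT-TR, c4 by ReDACT-CO), and the same WT and clones expressing the oncogene hRASV12 (hRas) gave 2 and 8 more. Every library came from cells plated for 24 hours, and total counts ran from 15042068 to 30984036 a library. Each clone is one isolate of a line, the libraries of a clone share that isolate, and the 3 A2058 comparisons share the same 4 WT libraries. Levels are given in CPM, a gene's counts divided by the library's total and scaled by edgeR's TMM factors within each line. Known markers were looked up in each line: 5 of 5 epithelial genes were present in HCT116 and AGS, the basal keratin set was present in MCF10A, and neither PAX8 nor WT1 exceeded 1 CPM in A2780. In A2058 the summed level of 6 melanocyte genes was 2486 to 4399 CPM in WT and 2087 to 3864 in 8q-loss. In 7p-loss it was 1881 to 4648 CPM in clone 1, 1196 to 2468 in clone 2 and 1329 to 2492 in clone 3. In 1q-loss it was 199 to 255 CPM in clone 1 and 49.5 to 62.2 in clone 2.

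The genes share a place rather than a pathway. PIGW adds an acyl chain to the inositol of glycosylphosphatidylinositol (GPI), the lipid anchor of many surface proteins, an early step of anchor assembly in the endoplasmic reticulum. MRM1 methylates the ribosomal RNA of mitochondria, ZNHIT3 helps to assemble box C/D small nucleolar ribonucleoproteins, and AATF is a nucleolar protein needed for processing of ribosomal RNA. ACACA is the acetyl-CoA carboxylase that makes malonyl-CoA, the committed step of fatty acid synthesis, and DHRS11 is a short-chain dehydrogenase. MYO19 is the myosin motor of mitochondria, TADA2A is an adaptor subunit of the ATAC histone acetyltransferase, LHX1 is a LIM-homeodomain transcription factor of early development and kidney, and GGNBP2 is a gametogenetin-binding protein. Band 17q12 is known for recurrent microdeletions and duplications between blocks of repeats, and most of these genes lie inside the affected stretch. Genes of one pathway, by contrast, are usually scattered over the genome, so that neighbours like these differ in function.

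On GRCh38 the members lie at chr17:36486629-37479730, a span of 0.99 Mb. ZNHIT3 (36486629 to 36499310, plus strand), MYO19 (36495633 to 36543435, minus strand), PIGW (36535020 to 36539310, plus), GGNBP2 (36544888 to 36589848, plus), DHRS11 (36591798 to 36600806, plus) and MRM1 (36601572 to 36608971, plus) form a tight proximal cluster. LHX1 (36936785 to 36944612, plus), AATF (36948875 to 37056871, plus), ACACA (37084988 to 37406818, minus) and TADA2A (37406874 to 37479730, plus) follow distally. PIGW lies inside the MYO19 gene on the opposite strand, and 20.8% of its exon bases (582 of 2799) are also exon of MYO19. Shared exon bases were 12.4% for MYO19, 17.5% for ZNHIT3 and 7.52% for LHX1, and 0 for the other members. The strand setting of the counting is not given in the sources used here, so reads of these overlapping exons cannot be assigned between PIGW, MYO19 and ZNHIT3 with certainty. MRM1, GGNBP2 and AATF share no exon base with another gene, and their values do not carry this limit.

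RefSeq promoter windows (GRCh38.p14, 250 bases before to 50 after the start) were found for 9 of the 10 members. Those of PIGW, MRM1 and GGNBP2 are shown because PIGW and MRM1 are the genes the set was built around, and GGNBP2, which lies between them, parted from both in one clone. Capitals mark matches, on either strand, to the motifs GGGGCGGGG (SP), GCATGCGC (NRF1), CCGGAAG (ETS), AAGATGGCG (YY1), ATTGGCT (NFY) and, for the binding protein TBP, TATAAA. The PIGW window is chr17:36534737-36535036 (plus strand), that of MRM1 is chr17:36601333-36601632 (plus strand) and that of GGNBP2 is chr17:36544669-36544968 (plus strand).
PIGW: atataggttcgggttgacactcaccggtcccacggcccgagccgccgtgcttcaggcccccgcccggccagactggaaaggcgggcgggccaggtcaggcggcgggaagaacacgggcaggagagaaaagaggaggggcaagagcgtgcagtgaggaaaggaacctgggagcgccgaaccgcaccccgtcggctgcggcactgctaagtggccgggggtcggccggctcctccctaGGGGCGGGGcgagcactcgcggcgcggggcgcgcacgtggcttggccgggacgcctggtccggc
MRM1: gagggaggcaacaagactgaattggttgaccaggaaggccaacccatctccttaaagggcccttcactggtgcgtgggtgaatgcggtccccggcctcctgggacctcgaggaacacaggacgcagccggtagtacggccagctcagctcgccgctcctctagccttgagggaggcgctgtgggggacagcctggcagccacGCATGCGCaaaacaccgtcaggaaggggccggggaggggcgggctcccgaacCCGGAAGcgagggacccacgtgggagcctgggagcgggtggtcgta
GGNBP2: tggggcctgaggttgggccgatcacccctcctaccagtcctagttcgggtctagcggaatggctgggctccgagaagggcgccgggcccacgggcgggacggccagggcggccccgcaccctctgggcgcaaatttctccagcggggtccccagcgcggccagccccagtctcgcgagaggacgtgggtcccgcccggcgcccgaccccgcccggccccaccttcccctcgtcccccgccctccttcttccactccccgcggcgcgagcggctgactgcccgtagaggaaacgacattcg
The PIGW window holds 1 SP match and the MRM1 window 1 NRF1 and 1 ETS match, while the GGNBP2 window holds no match to the 6 motifs. Of all 35116 windows, 15.7% hold the SP letters, 3.05% NRF1, 10.3% ETS, 1.75% YY1, 7.05% NFY and 11.5% TBP. The RefSeq starts of PIGW and MYO19 lie 119 bases apart in opposite directions (the GENCODE-like model of the counts extends MYO19 further, past PIGW), so that the SP match is the same one in both windows. TADA2A and ACACA also start head to head, 50 bases apart. The AATF window holds 1 SP and 1 ETS match, the DHRS11 window 2 SP matches, and those of ZNHIT3 and TADA2A none. None of the 6 motifs was common to all 9 members' windows.

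In A2058, PIGW stood at 59.9, 56.2, 51.5 and 52.9 CPM in the 4 WT libraries. It was at 29.3 and 24.2 CPM in 7p-loss clone 1, at 23.8 and 24.1 in clone 2 and at 26.2 and 24.2 in clone 3. In 1q-loss clone 1 it was at 32.0 and 31.5 CPM, and in 1q-loss clone 2 at 66.9 and 65.6. In the 8q-loss clones it was at 70.3 and 65.4 CPM (clone 1) and at 65.9 and 59.3 (clone 2). All 8 libraries of the 3 clones of 7p-loss and of 1q-loss clone 1 thus lay below every WT library, and the 10 other libraries, WT included, did not overlap with them. PIGW was thus low in a clone labelled as 1q-loss and made without a 7p-loss label, and was not low in its sister clone. In bulk RNA, fewer cells with a gene's full output and less of its RNA in every cell cannot be told apart.

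MRM1 split the clones in the same way into low and not low. It stood at 26.5, 24.5, 23.6 and 27.1 CPM in WT, and at 10.4 and 13.4, 10.5 and 8.95, and 10.05 and 10.1 CPM in 7p-loss clones 1, 2 and 3. In 1q-loss clone 1 it was at 9.21 and 11.6 CPM, against 24.3 and 29.7 in 1q-loss clone 2. The 8q-loss clones had 23.1 and 31.7 CPM (clone 1) and 26.6 and 34.6 CPM (clone 2), around and above the WT range. DHRS11, the gene just before MRM1, separated the same libraries: 22.3 to 29.7 CPM in WT, 6.16 to 15.1 in the same 8 low libraries, and 19.4 to 43.7 in the rest. MYO19, whose RefSeq start faces that of PIGW, was at 169 to 210.2 CPM in WT, at 69.0 to 111.5 in the 8 low libraries and at 190.3 to 278 in the others.

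**Figure D1:**
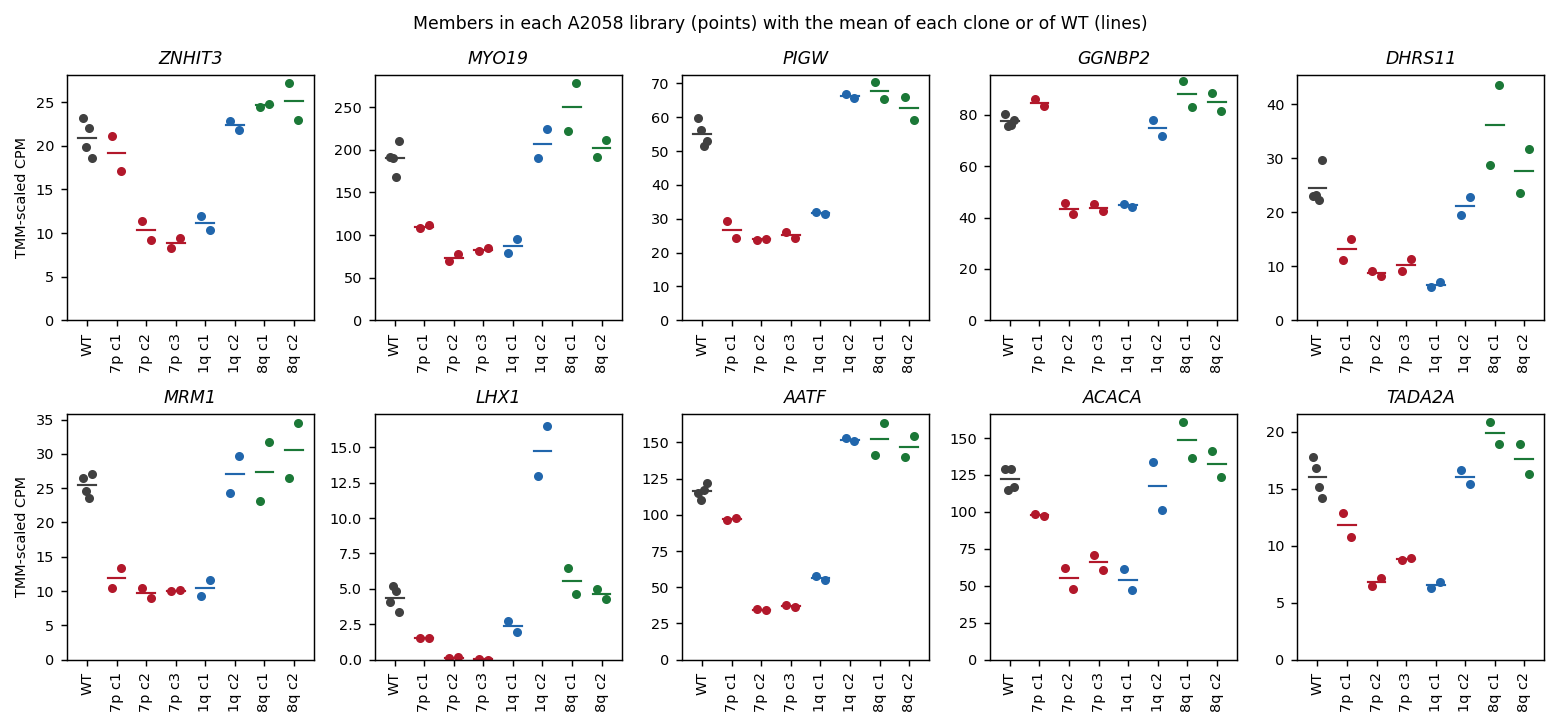
Level of each of the 10 members in the 18 A2058 libraries (y axis, TMM-scaled CPM, linear from 0, a scale for each panel), with 1 point a library and a line at the mean of WT or of a clone (x axis). The points of 7p-loss clones 2 and 3 and of 1q-loss clone 1 sit below all 4 WT points in every panel, those of 1q-loss clone 2 and of the 8q-loss clones do not, and 7p-loss clone 1 is low for PIGW, MRM1, MYO19 and DHRS11 and not for GGNBP2.

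GGNBP2, ZNHIT3 and the distal members AATF, ACACA and TADA2A were higher in 7p-loss clone 1 than in the 3 other low clones. GGNBP2, which lies between PIGW and MRM1, was at 80.5, 75.8, 75.9 and 78.0 CPM in WT and at 86.1 and 83.2 in 7p-loss clone 1, above every WT library. In 7p-loss clones 2 and 3 and in 1q-loss clone 1, by contrast, it was at 41.2 to 45.7 CPM. ZNHIT3, the snoRNP assembly factor at the proximal edge, was at 18.6 to 23.2 CPM in WT, at 21.1 and 17.2 in 7p-loss clone 1, and at 8.26 to 11.98 in those same 3 clones. Of the 2 members lying between PIGW and MRM1, DHRS11 was thus below all WT libraries in 7p-loss clone 1 and GGNBP2 was above them.

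Among the distal members, AATF stood at 115, 110.0, 117 and 122 CPM in WT. It was at 96.5 and 97.5 CPM in 7p-loss clone 1, at 34.8 and 34.2 in clone 2, at 37.8 and 36.1 in clone 3 and at 57.9 and 54.8 in 1q-loss clone 1. ACACA, the rate-setting enzyme of fatty acid synthesis, was at 114 to 129 CPM in WT, at 98.4 and 97.5 in 7p-loss clone 1 and at 47.2 to 70.8 in the 3 lower clones. TADA2A, which starts 50 bases from ACACA, was at 14.2 to 17.8 CPM in WT, at 12.9 and 10.8 in 7p-loss clone 1 and at 6.30 to 8.91 in the 3 lower clones. In 7p-loss clone 1 AATF, ACACA and TADA2A were therefore at 83.5%, 80.1% and 73.8% of WT, below every WT library. They were further below it in the 3 other low clones. LHX1, also distal, was at 34.8% of WT in 7p-loss clone 1, at a low level.

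LHX1, the developmental transcription factor, was the member with the lowest level and the widest spread. It stood at 4.06, 5.19, 4.85 and 3.34 CPM in WT and at 13.0 and 16.5 in 1q-loss clone 2, above every other A2058 library. In 7p-loss clone 2 it had 2 and 4 counts in all, and in clone 3 it had 1 and 0, so no fold is given for those clones. In 7p-loss clone 1 it was at 1.53 and 1.499 CPM and in 1q-loss clone 1 at 2.72 and 1.98.

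Counted clone by clone, all 10 members lay below all 4 WT libraries in every library of 7p-loss clone 2, 7p-loss clone 3 and 1q-loss clone 1. Over all 16318 genes the share meeting the same condition was 15.6% in 7p-loss clone 2, 14.9% in 7p-loss clone 3 and 28.5% in 1q-loss clone 1. In 7p-loss clone 1, 8 of 10 members met it, against 26.8% of all genes, and 1 (GGNBP2) lay above all WT libraries. The 7p-loss counts belong to the contrast that chose the members and are given only as a description. Leaving out LHX1, the median member stood at 42.5% of its WT mean in 7p-loss clone 2 (range 29.7% to 56.1%), at 43.5% in clone 3 (31.8% to 56.6%) and at 45.9% in 1q-loss clone 1 (26.9% to 57.7%). In 7p-loss clone 1 the median was 73.8%, and the range of 46.8% to 109% was wide.

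The 1q-loss libraries did not enter the choice of members, although the 4 WT libraries they are compared with did, and the 2 clones had different values. Fitted over both clones (4 libraries against 4), 0 of the 10 members passed an adjusted p of 0.05 by edgeR's quasi-likelihood test, and 0 had an unadjusted p under 0.05; DESeq2 also called 0. Of all 15387 genes tested in that fit, 49.6% passed in either direction, so a pass in this comparison is common. With clone 1 alone against the 4 WT libraries, an alternative that leaves out clone 2, all 10 members fell, by 0.80 to 1.90 on the log2 scale, with adjusted p from 4.53e-06 to 0.0197 by the edgeR test. In that fit 20.5% of all genes were lower. With clone 2 alone, 3 members rose, namely LHX1 (log2 change 1.76), AATF (0.38, adjusted p = 0.00193, edgeR) and PIGW (0.26, adjusted p = 0.0354, edgeR), against 22.8% of all genes higher. Each of these single-clone fits compares 2 libraries of one isolate with WT, so their p-values measure the spread of libraries within an isolate. In clone 2, 0 members lay below all WT libraries where 29.4% of all genes did, and 3 lay above them where 29.5% of all genes did. Beside these values stands the melanocyte set, which was lower than in WT in both 1q-loss clones, also in clone 2 where the members were not low, and its part in the result was not tested.

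In A2058 8q-loss, all 10 members had a positive fitted log2 change, between 0.16 and 0.38. AATF rose from 116 ± 4.93 CPM (SD, n = 4) in WT to 149.8 ± 11.23 (SD, n = 4), a log2 change of 0.36 ± 0.07 (SE), and was the 1 member to pass (adjusted p = 0.0378, edgeR), 3 having an unadjusted p under 0.05, where 0.542% of all genes were higher. That call was kept in 7 of 19 alternatives, with adjusted p from 0.00188 to 0.601, and was lost without either clone. By clone, 7 of 10 members lay above all WT libraries in 8q-loss clone 1, against 14.5% of all genes, and 2 in clone 2, against 11.6%. The median member was at 123.1% of WT in clone 1 and at 113% in clone 2, leaving out LHX1.

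For 7p-loss as a whole, the fit over 6 libraries against 4 WT gave a median log2 difference of -1.07 over the 10 members. The values were -1.12 for PIGW, -1.27 for MRM1, -1.10 for MYO19 and -1.19 for DHRS11, and these 4 were the members past the threshold, where 0.804% of all genes tested were lower. Without 7p-loss clone 1, all 10 were past it. Nothing is read from these counts, because this contrast chose the genes.

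Genes beyond the members were then read along chromosome 17, using the protein-coding genes with a WT mean of at least 5 CPM. The rule and the limits of the blocks described next were set after the values had been seen, and they are given without a test. A gene was counted when it was lower by 0.5 or more (log2) in 7p-loss clone 2, 7p-loss clone 3 and 1q-loss clone 1, and not in the 8q-loss clones. Of 10445 genes in the genome, 111 met this, and 46 of the 111 were among the 638 of chromosome 17. Of these, 14 were neighbours from ZNHIT3 to SOCS7 (chr17:36486629-38405593, 1.92 Mb), and all 14 genes of that stretch at this level met the rule. They were 9 members (LHX1 was under 5 CPM in WT) and the 5 genes beyond them, DUSP14, SYNRG, DDX52, MRPL45 and SOCS7. Their median log2 difference from WT was -1.18, -1.01 and -1.13 in the 3 clones. The low values thus ran past TADA2A, the last member. SYNRG, a clathrin-adaptor partner, was at 51.2 to 59.0 CPM in WT, at 23.6 to 34.0 in the 3 clones and at 48.8 to 80.1 in the remaining clones. The RNA helicase DDX52 was at 55.6 to 63.8 CPM in WT, at 25.5 to 35.5 in the 3 clones and at 52.9 to 80.9 in the remaining ones. Towards the centromere the next gene at this level, RASL10B, did not meet the rule.

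The 5 nearest tested genes on each side mark the edges. On the distal side DUSP14, SYNRG and DDX52 differed from WT by -1.17, -1.12 and -1.16 (log2) in 7p-loss clone 2, by -0.61, -0.72 and -0.79 in clone 3 and by -1.48, -0.96 and -1.14 in 1q-loss clone 1. TBC1D3L and TBC1D3D, copies of a repeated gene family among which reads cannot be assigned with certainty, were at 1.68 to 3.07 CPM in WT and are given no fold. On the proximal side AP2B1 and TAF15 differed by -0.07 to -0.33 in these clones, and RASL10B by -1.15, -0.91 and -0.28. CCL5 and RDM1 had under 1 CPM in WT. The distal neighbours were thus low with the members in these clones, and AP2B1 and TAF15 were nearer WT. RASL10B did not follow the members: it was also below all WT libraries in 1q-loss clone 2 (-0.93) and 8q-loss clone 1 (-0.60), where the members were not low. DUSP14, on the distal side, was also below all WT libraries in 1q-loss clone 2 (-0.61), so it parted from the members there.

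A second stretch met the same rule nearer the centromere, in 17q11.2, from WSB1 to NUFIP2 (chr17:27294076-29294118, 2.0 Mb). There 26 of 28 genes met it, the exceptions being KSR1 and ALDOC, and the medians were -1.25, -1.26 and -1.39. Between the stretches lay 6.47 Mb from TAOK1 to RASL10B with 37 genes, of which 0 met the rule, and whose medians were -0.12, -0.08 and -0.06. The 14 genes around the members and these 28 were thus low in the same 3 clones, with medians between -1.01 and -1.39, while the medians of the 37 genes between them were near 0, with 13, 8 and 12 of the 37 below all WT libraries. Over all genes that share was 15.6%, 14.9% and 28.5%. In all 3 clones more of the 37 were thus low than the background, by small amounts at the median. The excess was largest in 7p-loss clone 2 and smallest in 1q-loss clone 1. In 1q-loss clone 2 the medians were -0.06 over the 17q12 stretch and -0.21 over the 17q11.2 stretch, and 3 of 14 and 14 of 28 genes lay below all WT libraries, against 29.4% of all genes. In the 8q-loss clones both stretches were above WT, at 0.31 and 0.17 for 17q12 and at 0.28 and 0.24 for 17q11.2. DNA copy number was not analysed here, so whether the DNA of these stretches changed was not tested.

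**Figure D2:**
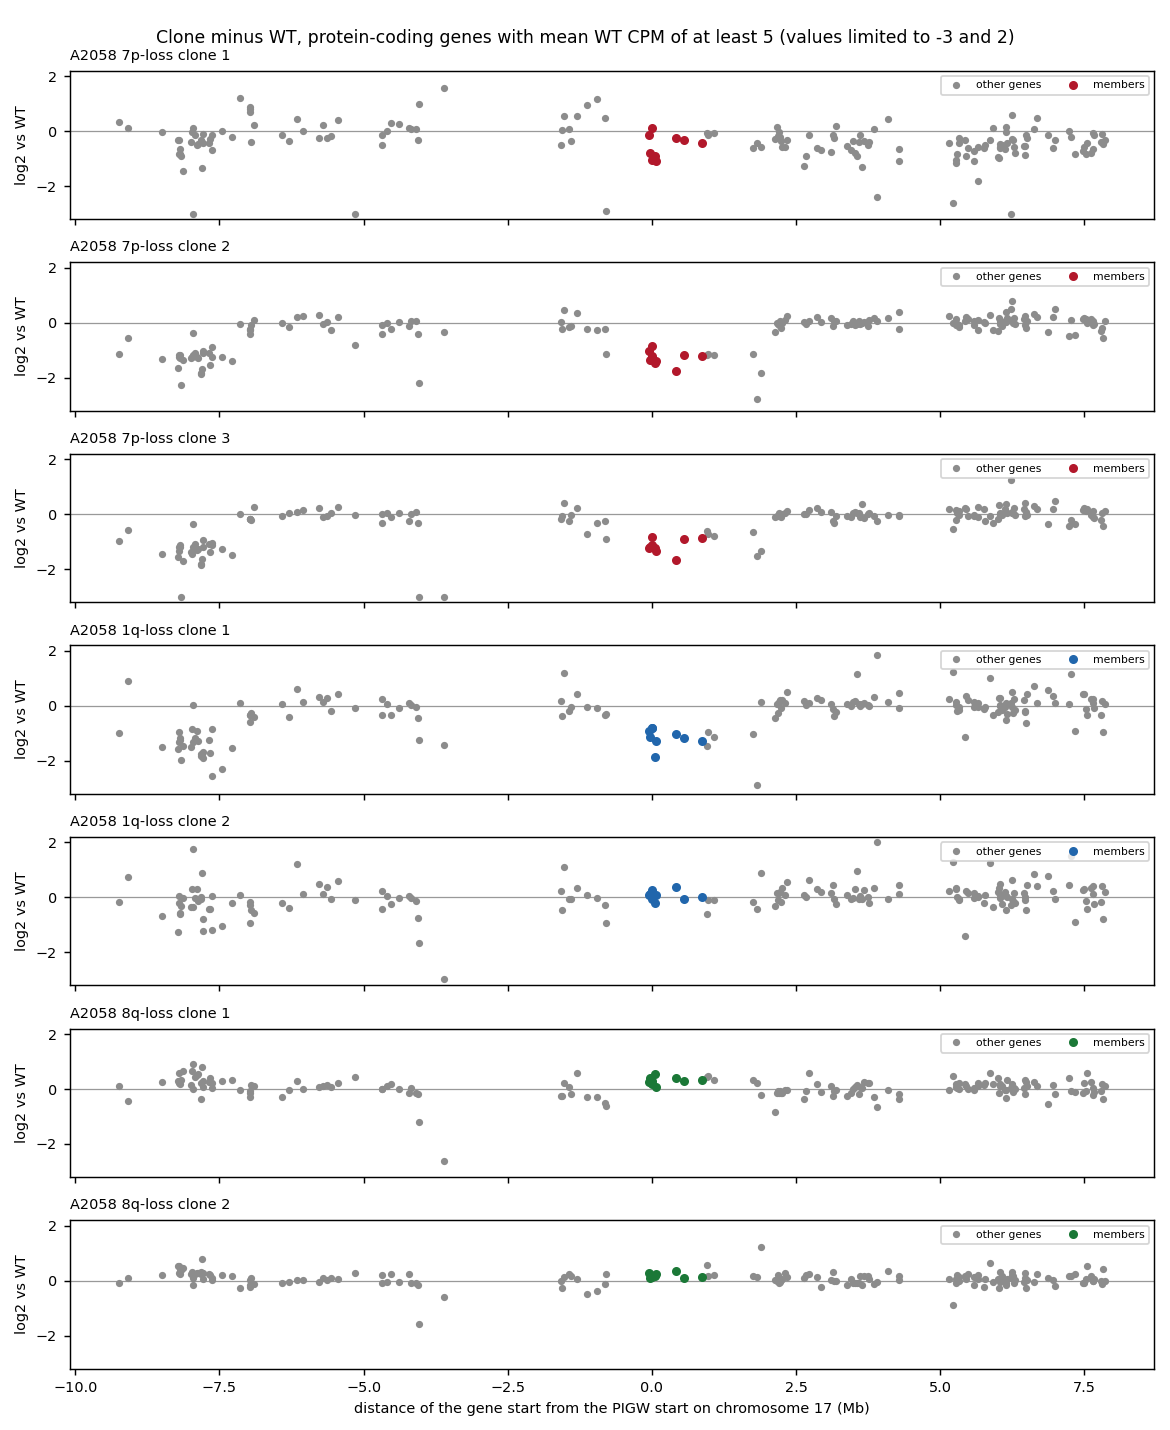
Log2 difference of each clone of A2058 from the WT mean (y axis, values limited to -3 and 2) for protein-coding genes of chromosome 17 with a WT mean of at least 5 CPM, by distance of the gene start from the PIGW start (x axis, Mb), with members in colour and other genes in grey. LHX1 is below that level and is not drawn. In 7p-loss clones 2 and 3 and in 1q-loss clone 1, 2 separate groups of genes sit near -1, the members with their distal neighbours and a group nearer the centromere, and most genes between them sit near 0.

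The profile of 7p-loss clone 1 was of another shape. Its median over the 14 genes of the 17q12 stretch was -0.37 and over the 17q11.2 stretch -0.35. Below all WT libraries lay 10 of the 14 and 21 of the 28 genes, against 26.8% of all genes, by less than in the 3 other low clones at the median. Around PIGW, the run of consecutive genes below all WT libraries held MYO19 and PIGW and was broken by ZNHIT3 and GGNBP2. Genes of the short arm, 17p, were lower in this clone (median -0.53 over 234 protein-coding genes), as were those of the 7 bins of 1 Mb from 38 to 45 Mb, whose medians lay between -0.60 and -0.23. The bin from 35 to 36 Mb, just before the members, was higher, at 0.53. Low values of PIGW and MRM1 in this clone therefore came with unequal values in their neighbours and with low values over other segments of the same chromosome.

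To place the stretch in the genome, medians were taken over every window of 10 neighbouring tested genes (12568 windows). Windows with a median of -0.7 or lower made up 0.66% of all windows in 7p-loss clone 2, 0.859% in 7p-loss clone 3 and 1.58% in 1q-loss clone 1, and those holding a member numbered 16, 17 and 15. The lowest window with at least 9 members had a median of -1.30, -1.24 and -1.15 in these clones. In 7p-loss clone 1 such windows were 1.57% of all, 1 of them with a member, and 100 of the 197 lay on chromosome 17. In 1q-loss clone 2 they were 1.62%, and in the 8q-loss clones 0.334% and 0.255%, and 0 held a member. Low windows were thus about as common in 1q-loss clone 2 as in clone 1, and those of clone 2 held 0 members.

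The genes whose levels followed PIGW and MRM1 most closely were found by Pearson's r of log2 CPM over the 18 A2058 libraries, among 11058 genes. These libraries share WT and clones, so r is a description only. For PIGW the nearest were IFT20 (r = 0.974), MYO19 (0.946), URGCP (0.941), TLCD1 (0.939) and SDF2 (0.938). For MRM1 they were MYO19 (0.969), SLC46A1 (0.958), URGCP (0.946), TLCD1 (0.942) and DHRS11 (0.939). IFT20, TLCD1, SDF2 and SLC46A1 lie in the 17q11.2 stretch, and URGCP lies on 7p. PIGW and MRM1 had r = 0.935 with each other, and GGNBP2, lying between them, had r = 0.736 with PIGW and 0.776 with MRM1, the lowest of the other members compared.

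Over the clones of each other line, the edgeR test called 0 members, and single clones differed. HCT116 8q-loss had 0 of 9 tested members past the threshold, and 0 with an unadjusted p under 0.05, where 0.14% of all genes passed (edgeR; DESeq2 also called 0). LHX1 was too low to test there. The 2 clones of HCT116 had different values of some members: GGNBP2 was at 5.69 and 4.69 CPM in clone 1 and at 14.4 and 9.99 in clone 2, against 8.04 and 12.7 in WT. ACACA was at 42.4 and 44.7 CPM in clone 1 and at 70.7 and 67.5 in clone 2, against 36.3 and 46.5 in WT. The difference of the 8q-loss effect between A2058 and HCT116, tested as an interaction in edgeR, passed for 0 members, where 0.514% of all genes passed, and 2 members (DHRS11 and LHX1) had an unadjusted p under 0.05. LHX1 entered that fit only through its A2058 counts, having 0 counts in the 4 HCT116 8q-loss libraries and 0 and 3 in WT, so nothing is read from its value.

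Loss of 1q in AGS left PIGW at 12.04 to 16.4 CPM over 5 clones, against 12.4 in WT and 10.3 and 11.4 in TK+. MRM1 was at 14.6 to 24.0 CPM, against 18.1 in WT and 15.5 and 19.5 in TK+. By edgeR 0 of 10 members passed, where 7.55% of all genes did, and 1 (ACACA) had an unadjusted p under 0.05. ACACA was at 96.2 to 152 CPM in the loss clones, against 100.5 in WT and 86.8 and 85.8 in TK+ (log2 change 0.48, adjusted p = 0.0795, edgeR). It passed with DESeq2 (adjusted p = 0.0411) and without clone c11 (adjusted p = 0.0211, edgeR). Clones c1 and c4, with 1 library each, had 7 of 10 members above all controls, against 36.9% and 36.2% of all genes.

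In A2780, PIGW was at 11.7 to 16.1 CPM in 1q-loss, against 11.21 and 12.9 in WT and 15.8 and 12.4 in TK+, and the groups overlapped. MRM1 was at 13.4 to 18.4 CPM, against 17.4 and 19.3 in WT and 21.9 and 21.1 in TK+ (log2 difference -0.31, adjusted p = 0.0755, edgeR). By edgeR 0 of 10 members passed, where 11.8% of all genes did, 1 (MRM1) had an unadjusted p under 0.05, and with DESeq2 MRM1 passed (adjusted p = 0.0436). LHX1 again varied by isolate, at 3.93 and 4.48 CPM in clone 5 and at 1.35 and 1.197 in clone 6, against 0.86 and 0.94 in WT and 0 in both TK+ libraries. In clone 2, the other isolate, it had 2 counts in each library, below WT.

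In MCF10A, PIGW was at 29.6 to 35.7 CPM in 1q-loss clones 1 to 3 and at 22.3 and 24.9 in clone 4, against 32.4 and 30.4 in WT. Clone 4, the ReDACT-CO clone, had 6 of 10 members below both WT libraries, against 27.5% of all genes. Over the 4 clones 0 members passed, and 0 had an unadjusted p under 0.05, where 2.04% of all genes passed (edgeR; DESeq2 also called 0). With hRASV12, PIGW was at 19.2 and 16.3 CPM in clone 4 and at 23.9 and 26.4 in clone 2, against 33.8 and 35.7 in WT. Clones 4 and 2 each had 8 of 10 members below both WT libraries, against 35.5% and 36.2% of all genes, clone 3 had 6, against 26.7%, and clone 1 had 2, against 28.0%. The median member, leaving out LHX1, stood at 73.5% of WT in hRas clone 4 and at 80.4% in hRas clone 2. In A2058 it was at 42.5% to 45.9% in 7p-loss clones 2 and 3 and 1q-loss clone 1. In A2058 7p-loss clone 1 it was at 73.8%, about as in hRas clone 4. Over the 4 hRas clones 0 members passed, where 0.214% of all genes did, and 1 (DHRS11, log2 difference -0.46) had an unadjusted p under 0.05 (edgeR; DESeq2 called 0). The difference of the 1q-loss effect with and without hRASV12 passed for 0 members (1 with an unadjusted p under 0.05, ACACA), and 0.0% of 16492 genes passed.

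**Figure D3:**
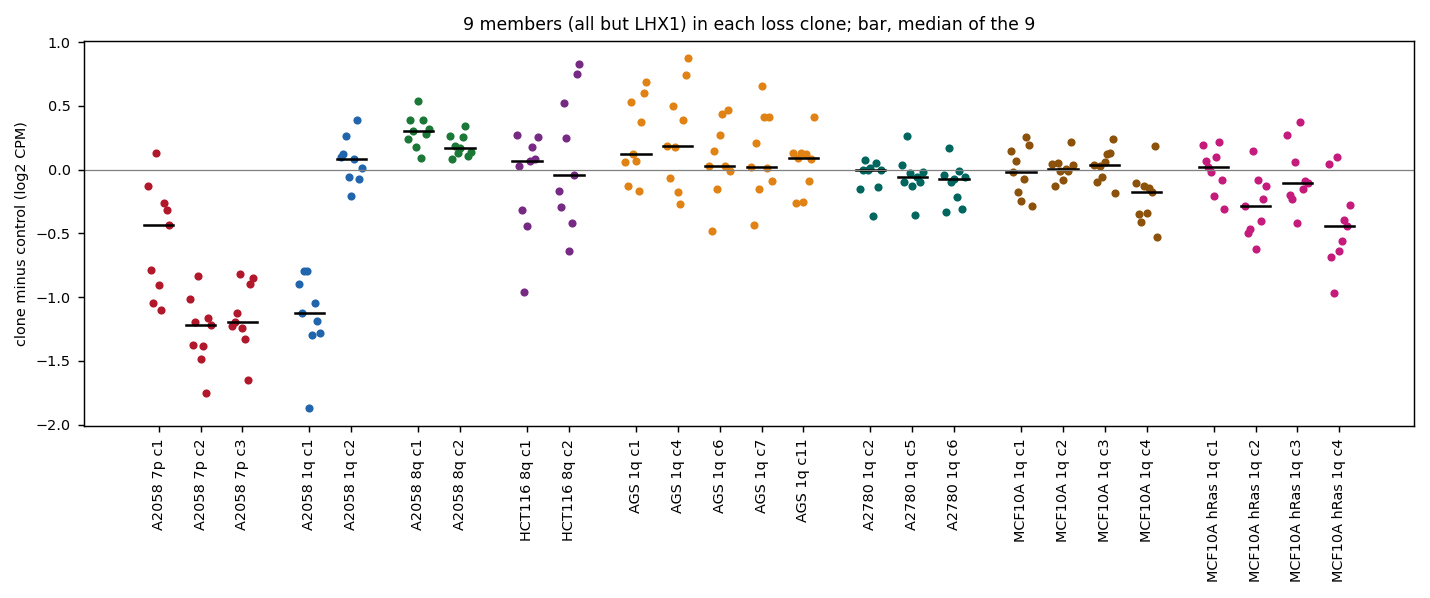
Log2 difference of the clone mean from the control mean (y axis, log2 CPM) for the 9 members other than LHX1 in every loss clone of every line (x axis), with 1 point a member and a bar at the median of the 9. In A2058 the medians of 7p-loss clones 2 and 3 and of 1q-loss clone 1 correspond to 42.5%, 43.5% and 45.9% of WT. That of 7p-loss clone 1 corresponds to 73.8%, and those of the clones of the other lines to between 73.5% and 114% of control.

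Genes that work with the members were read from lists by function, without the members themselves and without genes on the lost arm. In 7p-loss, 0 genes of any list passed the edgeR test, among 27 of GPI-anchor synthesis, 11 of mitochondrial rRNA modification, 13 of fatty acid synthesis, 9 of the ATAC complex and 10 of box C/D snoRNP assembly, and 7 of these 70 had an unadjusted p under 0.05, where 1838 of all 15053 genes outside 7p did. Of all genes outside 7p, 0.106% were higher and 0.352% lower. MRM2, a mitochondrial rRNA methyltransferase gene on 7p itself, had a log2 difference of -0.80. In 8q-loss, 1 of 26 GPI-anchor genes rose, the GPI transamidase subunit PIGS (log2 change 0.49, adjusted p = 0.0312, edgeR), where 0.554% of all genes outside 8q were higher. Of the other lists 0 genes passed by edgeR, and 1, of mitochondrial rRNA modification, had an unadjusted p under 0.05.

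In 1q-loss, where 3831 of the 14710 genes tested outside 1q were higher and 3336 lower, 5 of 24 GPI-anchor genes rose and 1 fell. PIGV rose by 0.72, PIGL by 0.60 and PIGG by 0.44 on the log2 scale, and PIGQ fell by 0.54. Of 13 fatty acid synthesis genes, 7 rose and 4 fell: ME1, which makes NADPH, rose by 1.49 and the acetyl-CoA synthetase ACSS2 by 1.25, while the desaturase SCD fell by 0.94 and fatty acid synthase, FASN, by 0.85. Of 12 genes of mitochondrial rRNA modification, 2 rose and 3 fell, and of 9 of the ATAC complex 3 rose and 1 fell, the acetyltransferase KAT2B, by 2.64. Of 10 genes of box C/D snoRNP assembly, 2 rose and 0 fell. The shares of the GPI, rRNA and snoRNP lists were near or below the background, and those of fatty acid synthesis were above it in both directions. The melanocyte set was also low in both 1q-loss clones, and its part in these list values was not tested.

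PIGS, a partner of PIGW in the GPI pathway, lies in the 17q11.2 stretch and was low in 7p-loss clones 2 and 3 and 1q-loss clone 1. It was at 103 to 111 CPM in WT, at 36.7 to 49.9 in 7p-loss clones 2 and 3, and at 56.9 and 61.0 in 1q-loss clone 1. In the 8q-loss clones it was at 132 to 175 CPM, and in 1q-loss clone 2 at 134.0 and 133.6, above every WT library. In 7p-loss clone 1 it stood at 108 and 99.9 CPM, so that in this clone PIGW was low and PIGS was near WT. ERAL1, a chaperone of the small mitochondrial ribosomal RNA in the same stretch, was at 72.0 to 77.9 CPM in WT. It was at 30.5 to 37.6 CPM in 7p-loss clones 2 and 3 and 1q-loss clone 1. In the 8q-loss clones it was at 84.7 to 92.3 CPM. ERAL1 was also below WT in 7p-loss clone 1 (53.6 and 57.2 CPM) and in 1q-loss clone 2 (53.9 and 57.2 CPM). In 1q-loss clone 2 it thus parted from the members, which were not low there.

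Levels of different genes were compared in WT cells as CPM per kb of exon. Scaling was over all libraries of the 4 GRCh38 lines together, loss clones included, and over all A2780 libraries separately. AATF was the highest member in A2058 (22.98 ± 0.93, SD, n = 4), HCT116 (30.4 ± 0.43, SD, n = 2), AGS (12.3, 1 library), MCF10A (28.9 ± 0.01, SD, n = 2) and MCF10A hRas (30.95 ± 0.10, SD, n = 2). In A2058 it was followed by PIGW (18.4 ± 1.28), MYO19 (13.6 ± 1.25) and MRM1 (12.8 ± 0.83), the last a pair whose values overlapped. ACACA (8.78 ± 0.52), GGNBP2 (7.43 ± 0.21), DHRS11 (4.19 ± 0.60), ZNHIT3 (2.92 ± 0.28), TADA2A (2.64 ± 0.27) and LHX1 (0.83 ± 0.16) came next, where ZNHIT3 and TADA2A overlapped. In A2780 ACACA led (53.9 ± 1.35, SD, n = 2), ahead of AATF (48.2 ± 0.80, SD, n = 2), with other gene models than in the remaining lines. LHX1 was the lowest member in every line. PIGW was higher in A2058 than in MCF10A (11.6 ± 0.71, SD, n = 2), HCT116 (4.03 ± 0.49, SD, n = 2) and AGS (4.03). GGNBP2 was 1.32 ± 0.46 (SD, n = 2) in HCT116, against 7.43 to 8.64 in the other GRCh38 lines.

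**Figure D4:**
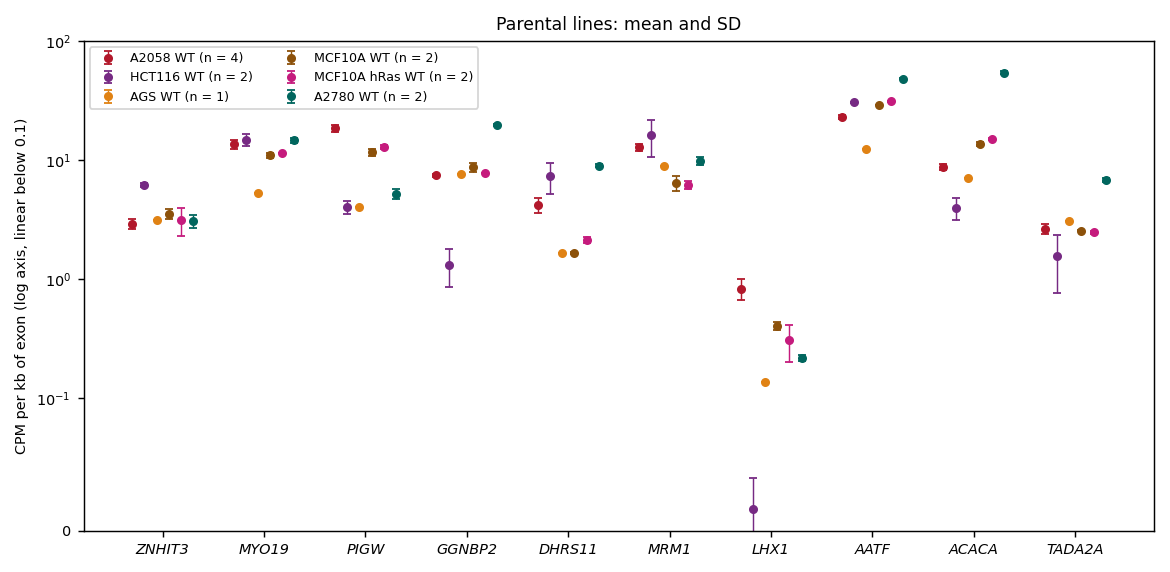
Level of each member in the WT libraries of each line (y axis, CPM per kb of exon, log axis that is linear below 0.1), with the mean as a point and the SD as bars, and 1 library without a bar for AGS. The members stand along the x axis in chromosomal order. AATF is first or second and LHX1 lowest in every line, and GGNBP2 is low in HCT116.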

How the data were processed

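RNA was taken with RNeasy columns from cells plated for a day, and libraries were made by poly-T capture and random hexamers, per the labels' protocols. The authors deposited raw counts per gene and library, and HISAT2 2.0.5 and featureCounts 1.5.0-p3 with hg38 are named per the submitters' processing notes. The A2780 tables carry GRCh37 coordinates and other gene models, so its members were matched by symbol and its values are set beside the other lines without a test.

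Counts were tested with edgeR 4.0.16 (R 4.3.3): filterByExpr with a minimum count of 10, TMM scaling, and quasi-likelihood fits on the libraries of each comparison, with Benjamini-Hochberg adjustment over all genes tested and calls at an adjusted p of 0.05. AGS and A2780 controls pooled WT and TK+ libraries. SE is the log2 change divided by the root of F. Log2 CPM used a prior count of 2. DESeq2 1.42.0 was an alternative. The code was checked on simulated data. Libraries are separate samples per the labels, but nothing says that they came from separate cultures, so p-values measure only the spread between libraries, which may be technical. Over all pairs of libraries within a group, counts differed by more than sampling noise. Counting error is small at these depths for every member but LHX1.

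The members, the partner lists and the named genes (all members, the 5 genes most like PIGW and MRM1, and the 5 nearest genes on each side) were chosen with earlier results of these data known. The stretches on chromosome 17 and the genes CCL5, PIGS and ERAL1 were chosen after their values were seen. Replicate numbers did not pair libraries (correlations of -0.14 to 0.28), so no block entered the fits. The alternatives were other scalings and filters, DESeq2, summed clones, the replicate block, and leaving out each library or clone.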

Additional observations from a re-analysis of the deposited data

Results flagged for a closer look

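Of 89 sets examined (a member in a group of 4 to 8 libraries), 1 held a library far from the others. DHRS11, the short-chain dehydrogenase gene next to MRM1, was at 29.7 CPM in A2058 WT replicate 4 against 22.3 to 23.2 CPM in the other 3 WT libraries, a gap of 0.85 of the whole range on the log2 CPM scale. Chance sets apart about 1 in 20 such groups. Without that library the fitted log2 difference of DHRS11 was -1.10 in 7p-loss, -0.71 in 1q-loss and 0.49 in 8q-loss.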

How the results depend on the processing

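The 7p-loss median of -1.07 (SD 0.35 over the 6 libraries) ranged from -1.22 to -0.90 over 22 alternatives and from -1.17 to -0.99 when 1 library was left out. The count of members past the threshold there was 4, and it was 6 with DESeq2, 10 without 7p-loss clone 1, 2 with WT replicates 1 and 2 only, 2 with WT replicates 3 and 4 only, and 4 to 5 when 1 library was left out. In A2058 1q-loss the count was 0, and it was 3 with no filter (GGNBP2, DHRS11 and ACACA), 3 without clone 1, 10 without clone 2, and 0 to 3 when 1 library was left out. In 1q-loss, the members that changed sign and passed in the alternative were PIGW (0.26) and AATF (0.38) without clone 1 and LHX1 (-0.89) without clone 2. Without clone 1, ZNHIT3 (0.09), MYO19 (0.12), MRM1 (0.09) and TADA2A (0.0021) also changed sign and did not pass. In A2058 8q-loss the count was 1, and it was 0 with summed clones, 0 without clone 1, 0 without clone 2, 0 with either pair of WT libraries alone, and 0 to 1 when 1 library was left out, the call of AATF being lost without any 1 of the 4 WT libraries and without replicate 2 of either clone. In AGS the count of 0 became 1 with DESeq2 and ranged from 0 to 1 when 1 library was left out. In A2780 it became 1 with DESeq2. It was 0 in every alternative run for HCT116, MCF10A, MCF10A hRas and both interactions. Beyond the clones left out, whose fits hold fewer libraries, the cause of these changes was not tested. Summed clones were not run for AGS, which has 1 library a clone.

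With the replicate number as a block, the count of members past the threshold was 1 in A2058 7p-loss and 0 in A2058 8q-loss, and 0 in A2058 1q-loss, HCT116, A2780, MCF10A, MCF10A hRas and both interactions. Same-numbered libraries had correlations of -0.14 to 0.28, so the numbers do not pair them. The depth limits LHX1 most, which had 0 to 4 counts a library in 7p-loss clones 2 and 3.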

Other observations

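CCL5 is a chemokine gene that starts 0.66 Mb before the PIGW start (chr17:35871491-35880793, GRCh38). It was high in both 1q-loss clones of A2058, at 22.2 and 23.5 CPM in clone 1 and at 19.9 and 25.8 CPM in clone 2. In the 4 WT libraries it had 0, 0, 3 and 6 counts, and in the 10 libraries of 7p-loss and 8q-loss 0 to 15 counts. The members, a short distance away, were low in clone 1 and not in clone 2, so this neighbour did not follow them.

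AP2B1 is a clathrin-adaptor gene that starts 0.96 Mb before the PIGW start. It was at 327 and 293 CPM in 7p-loss clone 1, against 128 to 146 CPM in WT and 105 to 144 CPM in the other clones. PIGW was at 29.3 and 24.2 CPM in that same clone. Opposite changes thus stood within 1 Mb of each other in 7p-loss clone 1.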
